A study of Rattus norvegicus with 20 samples.

Results

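The proteasome genes were taken by symbol: every probe whose platform gene symbol begins with Psma, Psmb, Psmc, Psmd, Psme, Psmf or Psmg. The rule found 59 of 41010 probes, which gave 50 of 16421 genes with a single symbol. Of these 50 genes, 31 encode subunits of the constitutive 26S proteasome, 3 encode the catalytic subunits of the immunoproteasome (Psmb8, Psmb9 and Psmb10) and 16 are other members. The 16 comprise the activators Psme1, Psme2, Psme3 and Psme4, the assembly chaperones Psmd5, Psmd9, Psmd10, Psmg1, Psmg2 and Psmg4, the inhibitor Psmf1, the testis subunit Psma8, the thymus subunit Psmb11, the Psmb3-like gene Psmb3l2, and Psmc3ip and Psme3ip1, which share the first letters of the symbol without being subunits. The rule itself uses symbols and no measured value.

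Whole-genome rat arrays from Agilent, 20 in number, held RNA of iliac arteries of Fisher (F344) rats, each carrying the cDNA of 2 arteries, one in Cy5 and the other in Cy3. Old (22 months) were set against young (3 months) rats on 3 arrays of healthy arteries and on 3, 4 and 4 arrays of arteries taken 30 min, 3 days and 7 days after balloon injury of the right iliac artery. The study's results describe both ages as injured, but a supplementary title for 3 days sets old injured against young control arteries. If the young arteries were uninjured there, age and injury cannot be told apart. A further 3 arrays held old against old arteries and 3 held young against young arteries, all labelled 30 min. The labels of these last 6 arrays do not say which artery was injured, so their ratios have a size but no named direction. A supplementary title for 30 min sets young injured against young control arteries, without giving the dye of either.

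Harlan Laboratories supplied the young rats and the National Institute of Aging the old ones, so age cannot be told apart from supplier, and the methods give a younger age for the young rats than the labels do. No source ties arteries to animals, and the p-values therefore measure only the spread between these samples, whose small number limits the precision. In whole arteries, fewer cells of a type and less RNA per cell cannot be told apart. Where the old artery carried Cy3, the sign of the deposited log2 ratios was reversed, so that a positive value stands for old over young. This reading is not settled by the sources: once turned, arrays of opposite dye correlated across 36037 features at r = −0.43 to −0.26 at 3 days and −0.37 to −0.19 at 7 days, and those of the same dye at 0.32 to 0.36 and 0.37 to 0.39. The early arrays differed from this. In healthy arteries opposite dyes correlated at 0.17 to 0.21 and the same dye at −0.20, and at 30 min at −0.06 to −0.05 and 0.21. The values as deposited are therefore given beside the main results. Each ratio was fitted with limma over all 20 arrays, with a term for the dye, and tested against 0 with Benjamini-Hochberg adjustment over the 36037 features. Features are the genes and, in addition, 19616 probes without a symbol.

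The proteasome is the protease that degrades most short-lived and damaged proteins of the cell after they are tagged with ubiquitin. Its barrel-shaped core has outer rings of alpha subunits, which gate the entrance, and inner rings of beta subunits, of which Psmb5, Psmb6 and Psmb7 carry the proteolytic sites. A regulatory particle with a ring of ATPases (Psmc genes) and a lid (Psmd genes) recognises, unfolds and feeds the substrate. Under interferon-gamma, and constitutively in many immune cells, Psmb8, Psmb9 and Psmb10 take the places of Psmb5, Psmb6 and Psmb7 in newly built particles, which favours peptides for MHC class I. Subunits of the constitutive particle are known to be expressed together in most tissues.

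In the turned reading no proteasome gene passed the adjusted test between old and young arteries at any time. With the arrays as deposited 1 gene did, the ATPase Psmc6, at 3 days and at 7 days, and its values are given further on. In that reading limma called 7.08% of all features above 0 and 7.33% below at 3 days, and 10% above 0 and 11.8% below at 7 days. In the turned reading the count was 0 of 50 in healthy arteries, against 0% of all features called higher and 0.00555% called lower. It was 0 of 50 at 30 min (0.00555% and 0.00277% of all features), at 3 days (0.0111% and 0.025%) and at 7 days (0.233% and 0.547%). Under an unadjusted p of 0.05, limma put 5 members above 0 and none below in healthy arteries, 1 above and 3 below at 30 min, 1 below at 3 days and none at 7 days. For these counts the shares of all features above and below 0 were 1.57% and 1.33%, 2.45% and 1.48%, 2.15% and 2.19%, and 5.28% and 6.25%. A one-sample t-test of each comparison's own arrays, run without correction at the study's threshold (the methods name a one-way analysis of variance), gave 0, 2, 1 and 4 members in the same order (4.75%, 4.71%, 2.16% and 3.66% of all features), and 0 after Benjamini-Hochberg adjustment. The smallest adjusted p of a member by limma was 0.56, for Psmd7 at 7 days.

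The ratios were also small. The 95% interval of the fitted ratio lay within 2-fold of no difference for 48 of 50 members in healthy arteries, 46 at 30 min, 49 at 3 days and 50 at 7 days, where the corresponding shares of all features were 81.5%, 78.2%, 85.7% and 79.1%. The median standard error of the members was 0.21 on the log2 scale with 3 arrays and 0.18 with 4, and that of all features was 0.26 and 0.23. Between the arrays the spread of the members' log2 ratios ran from 0.23 (standard deviation over 50 genes, 30 min, young versus young, replicate 2) to 0.66 (30 min, young versus young, replicate 3).

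**Figure D1:**
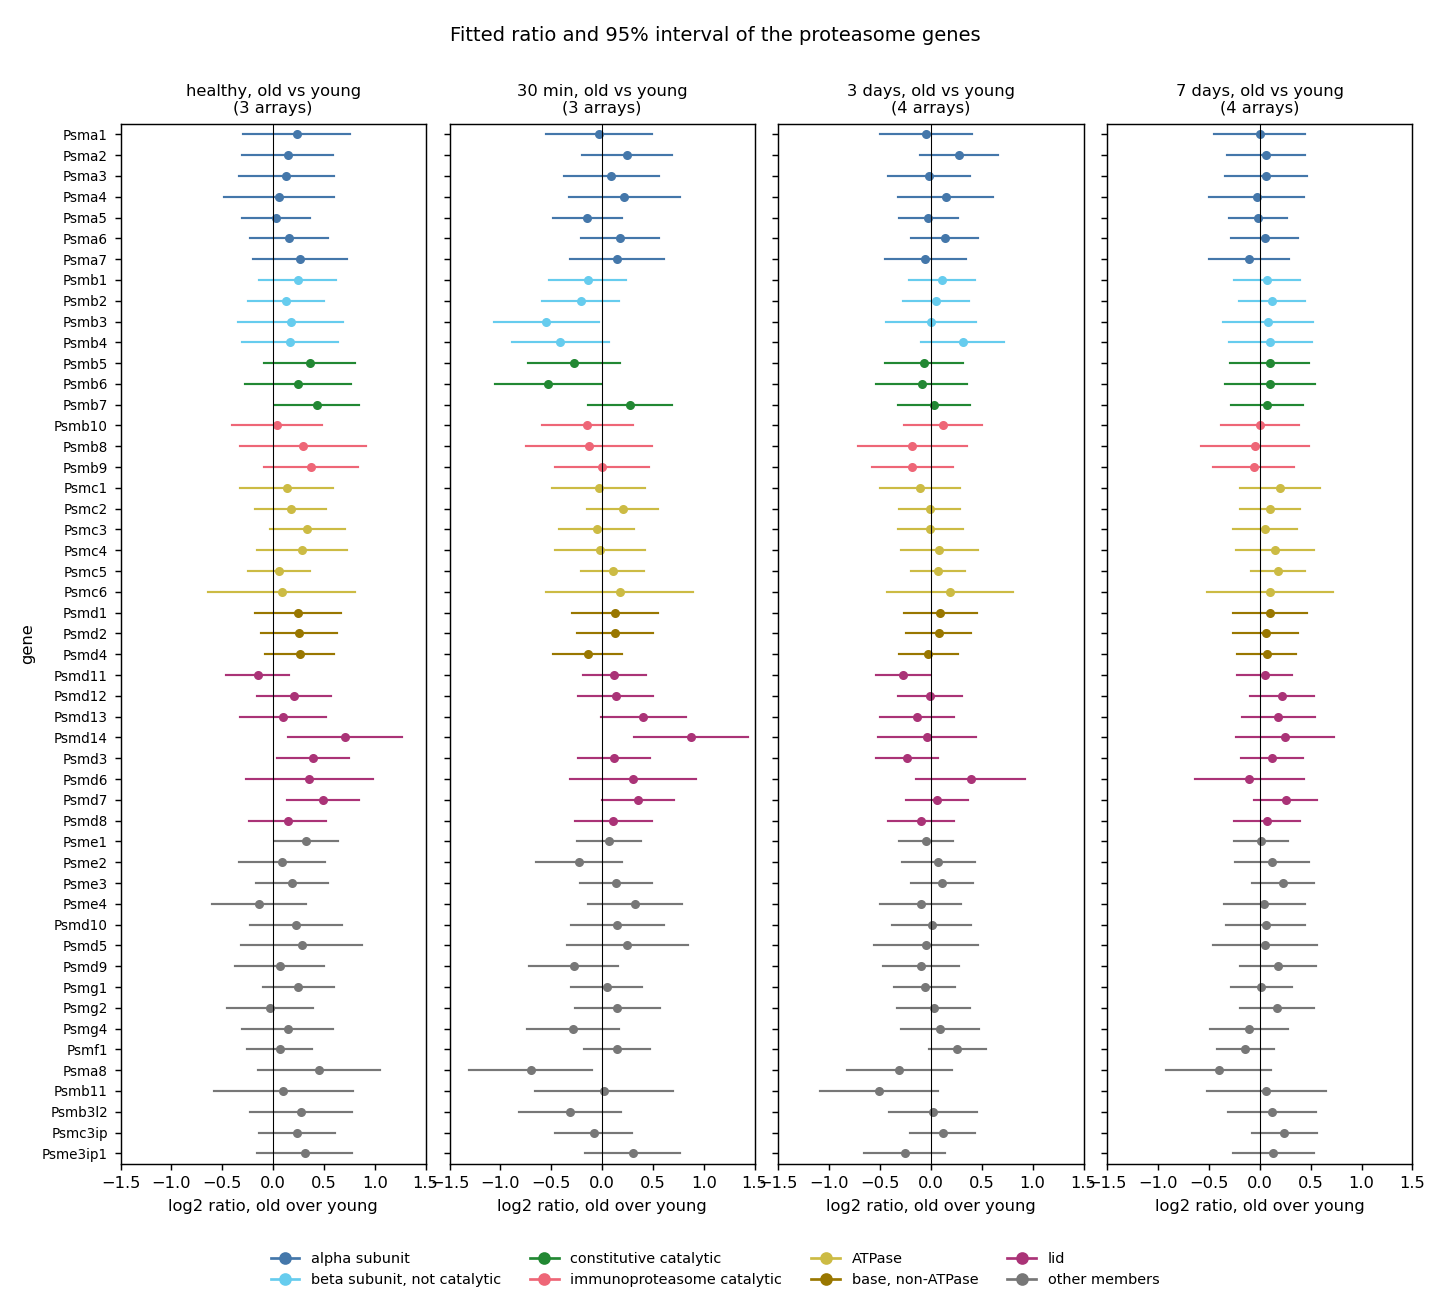
Fitted log2 ratio of old over young (points) with its 95% interval (lines) for the 50 proteasome genes, ordered and coloured by role, in the 4 comparisons of old with young arteries. In healthy arteries 47 of 50 points lie above 0, at 7 days all intervals lie within 2-fold, and Psmd14 stands highest in both healthy arteries and at 30 min.

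In healthy arteries the ratios leaned to the side of the old rats. The fitted ratio was above 0 for 47 of 50 members and for 30 of 31 constitutive subunits, against 50.6% of all features, and for 40 of 50 and 29 of 31 in the same fit of the ratios as deposited. The median log2 ratio of the constitutive subunits was 0.21, and 0.08 as deposited, beside 0.00 for all features. This lean was not on every array. The median of the 31 subunits was 0.01 on replicate 1, 0.44 on replicate 2 and 0.14 on replicate 3, and only 15 of 50 members stood above 0 on all 3 arrays (11.2% of all features did). Across the 50 members, replicates 1 and 3, which have the same dye orientation, correlated at r = −0.52, and at −0.20 across all features.

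All 7 alpha subunits (median 0.14), all 4 structural beta subunits (0.17), all 3 constitutive catalytic subunits (0.36), all 6 ATPases (0.15), all 3 other base subunits (0.26) and 7 of 8 lid subunits (0.28) had a fitted ratio above 0 in healthy arteries, and as deposited the medians of these roles lay between 0.02 and 0.13. The highest single members were of the lid. Psmd14, the deubiquitinase that removes ubiquitin from the substrate, measured −0.00, 1.00 and 1.04 on replicates 1, 2 and 3, so that one array stood at 0 and the others near 2-fold. Its fitted log2 ratio was 0.71 (SE 0.27, unadjusted p = 0.016, limma adjusted p = 1.00), and 0.05 as deposited. Its probe shared its value with at least 2 other probes on 5 of 20 arrays. Psmd7, its partner in the lid, measured 0.14, 0.70 and 0.61, above 0 on all 3 arrays and lowest on the same array. Its fitted value was 0.49 (SE 0.17, unadjusted p = 0.00988, adjusted p = 1.00 by limma), and 0.04 as deposited. The 3 probes averaged for Psmd7 had fitted values from 0.24 to 0.76. The lid subunit Psmd3 measured 0.09, 0.56 and 0.51, again lowest on replicate 1, from a probe with shared values on 11 of 20 arrays. Psmd11, a lid subunit that joins lid and base, was the lowest member and measured −0.06, −0.22 and −0.15, the only member below 0 on all 3 arrays (13.2% of all features were). As deposited it had −0.03 and crossed 0, and Psmb8 was the lowest member with −0.31.

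The remaining extremes in healthy arteries were genes outside the constitutive particle. Psma8, the alpha subunit of the testis, measured 1.08, 0.18 and −0.17, which spans both sides of 0. Its probe held a value shared by at least 3 probes of the same array on all 20 arrays, and its fitted value was 0.45 and −0.30 as deposited. Psme4, an activator known from chromatin and spermatogenesis, measured −0.35, −0.20 and 0.13, and Psmg2, a chaperone of ring assembly, measured −0.43, 0.10 and 0.17, both crossing 0 (fitted 0.02 and 0.14 as deposited).

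The constitutive catalytic subunits followed each other over the healthy arrays. Psmb5, with chymotrypsin-like activity, measured −0.09, 0.49 and 0.53 (fitted 0.36, SE 0.21). Psmb6, with caspase-like activity, measured −0.01, 0.39 and 0.28 (fitted 0.25, SE 0.25). Psmb7, with trypsin-like activity, measured 0.01, 0.80 and 0.42 (fitted 0.43, SE 0.20, unadjusted p = 0.0405, limma adjusted p = 1.00). All 3 were close to 0 on replicate 1 and above it on the other arrays.

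The immunoproteasome subunits had a different order over the same arrays. Psmb8, which replaces Psmb5, measured −0.02, −0.14 and 0.84 (fitted 0.29, SE 0.29). Psmb9, which replaces Psmb6, measured 0.81, 0.29 and 0.11 (fitted 0.37, SE 0.22). Psmb10, which replaces Psmb7, measured 0.36, −0.11 and −0.18 (fitted 0.04, SE 0.21). Psmb8 was thus high on replicate 3 alone and Psmb9 and Psmb10 were highest on replicate 1, and their mean minus the median of the constitutive subunits was 0.03 on the log2 scale, and −0.28 as deposited. That difference was 0.37, −0.42 and 0.12 on the 3 arrays, so that it changed sign between them. As deposited all 3 immunoproteasome subunits had a ratio below 0, with a median of −0.22, and the constitutive catalytic subunits one of 0.06.

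Psme1 and Psme2, the interferon-inducible pair that forms an activator cap on the core, had no common order over the healthy arrays. Psme1 measured −0.03, 0.39 and 0.45 (fitted 0.33, SE 0.15, unadjusted p = 0.0404, limma adjusted p = 1.00). Psme2 measured 0.29, 0.26 and −0.22 (fitted 0.08, SE 0.20). Each was on both sides of 0, Psme1 low on replicate 1 and Psme2 on replicate 3, and their mean difference was 0.16 (SD 0.50) and −0.07 as deposited, less than the spread between arrays.

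The promoters of the 6 catalytic subunits and of Psme1 and Psme2 are shown because these genes are the ones the comparison of constitutive with interferon-inducible subunits turns on. Each is the stretch of 250 bases before the gene's start from RefSeq (GRCr8), 5′ to 3′ in the direction of the gene. Capitals mark a match, on either strand, to TGACNNNGC (letters of the antioxidant response element), the interferon-stimulated response element (GAAA and, after 2 bases of any kind, GAAA again) or TTCNNNGAA (gamma-activated site).
Psmb5 (chr15:32047380-32047629, minus strand): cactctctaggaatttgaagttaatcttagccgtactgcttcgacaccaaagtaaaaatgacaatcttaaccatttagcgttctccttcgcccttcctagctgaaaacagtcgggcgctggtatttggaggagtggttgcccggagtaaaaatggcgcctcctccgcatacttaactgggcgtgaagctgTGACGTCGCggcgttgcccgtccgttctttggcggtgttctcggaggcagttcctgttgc
Psmb6 (chr10:55737638-55737887, plus strand): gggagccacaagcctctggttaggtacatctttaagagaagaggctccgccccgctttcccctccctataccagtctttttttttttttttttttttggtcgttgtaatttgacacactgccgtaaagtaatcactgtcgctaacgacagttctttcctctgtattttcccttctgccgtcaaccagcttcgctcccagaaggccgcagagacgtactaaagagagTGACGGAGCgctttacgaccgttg
Psmb7 (chr3:42827471-42827720, minus strand): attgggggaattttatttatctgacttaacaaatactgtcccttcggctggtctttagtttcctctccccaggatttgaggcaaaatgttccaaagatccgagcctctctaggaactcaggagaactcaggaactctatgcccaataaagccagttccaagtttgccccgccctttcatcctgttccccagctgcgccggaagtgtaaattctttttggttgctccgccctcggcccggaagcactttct
Psmb8 (chr20:4657032-4657281, minus strand): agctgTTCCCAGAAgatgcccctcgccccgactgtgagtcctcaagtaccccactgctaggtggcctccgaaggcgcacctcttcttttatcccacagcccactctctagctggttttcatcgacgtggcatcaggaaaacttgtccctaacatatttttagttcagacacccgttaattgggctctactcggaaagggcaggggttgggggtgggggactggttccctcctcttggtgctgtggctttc
Psmb9 (chr20:4668750-4668999, plus strand): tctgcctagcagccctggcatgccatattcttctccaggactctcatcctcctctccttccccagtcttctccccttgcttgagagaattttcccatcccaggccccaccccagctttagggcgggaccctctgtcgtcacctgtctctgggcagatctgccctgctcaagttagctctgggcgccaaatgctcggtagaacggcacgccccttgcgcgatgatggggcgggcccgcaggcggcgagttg
Psmb10 (chr19:50743293-50743542, minus strand): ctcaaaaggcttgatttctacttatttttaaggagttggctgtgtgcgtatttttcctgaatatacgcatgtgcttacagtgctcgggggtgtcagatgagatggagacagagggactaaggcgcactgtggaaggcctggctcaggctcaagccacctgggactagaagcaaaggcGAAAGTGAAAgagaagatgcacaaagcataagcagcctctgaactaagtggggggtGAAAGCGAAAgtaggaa
Psme1 (chr15:33038721-33038970, plus strand): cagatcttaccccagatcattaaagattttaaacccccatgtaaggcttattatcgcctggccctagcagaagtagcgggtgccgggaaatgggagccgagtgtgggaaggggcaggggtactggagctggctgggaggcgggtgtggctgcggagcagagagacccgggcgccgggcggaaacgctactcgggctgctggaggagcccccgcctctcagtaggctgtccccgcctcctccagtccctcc
Psme2 (chr15:33052752-33053001, minus strand): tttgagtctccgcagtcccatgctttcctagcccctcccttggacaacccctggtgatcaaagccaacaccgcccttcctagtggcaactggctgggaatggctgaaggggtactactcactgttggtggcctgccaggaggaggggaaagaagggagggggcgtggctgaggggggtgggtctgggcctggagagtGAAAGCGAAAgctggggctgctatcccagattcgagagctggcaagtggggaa

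Of the 50 members, 44 had a promoter in the RefSeq table. TGACNNNGC was found in 7 of them (15.9%) and in 10.1% of all 33469 promoters, among them Psmb5 (60 to 52 bases before the start) and Psmb6 (24 to 16 bases before the start). The interferon-stimulated response element was found in 5 (11.4%) and in 3.41% of all promoters. Psmb10 holds it at 73 to 64 and at 17 to 8 bases before the start, and Psme2 at 53 to 44. The other 3 members with it are the constitutive subunits Psma4, Psmb3 and Psmd7. TTCNNNGAA was found in 4 (9.09%) and in 7.67% of all promoters, among them Psmb8 (245 to 237 bases before the start). The other 3 members with it are the constitutive subunits Psmc6, Psmd3 and Psmd7. Psmb7, Psmb9 and Psme1 hold none of the 3 in these 250 bases. In the annotation Psmb8 and Psmb9 lie on chromosome 20 on either side of Tap1, a subunit of the peptide transporter, and Tap2, its partner, is the next gene beyond Psmb8. A match is a run of letters and was not tested as a binding site.

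At 30 min after injury the ratios of the constitutive subunits centred near 0, with a median of 0.11, which became −0.03 as deposited. Replicate 3 of 30 min had the widest spread of members among the 14 old versus young arrays. The members had a standard deviation of 0.59 on it, against 0.32 and 0.23 on replicates 1 and 2, and the beta ring stood on the other side of 0 from the alpha ring and the lid. Its median was −0.71 over the 7 beta subunits of the constitutive core, 0.29 over the 7 alpha subunits, 0.06 over the 9 subunits of the base and 0.30 over the 8 of the lid.

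Psmb3, a structural beta subunit, measured −0.12, −0.07 and −1.33, and had a fitted log2 ratio of −0.55 (SE 0.24, unadjusted p = 0.0381, limma adjusted p = 1.00). Psmb6 measured −0.09, −0.12 and −1.31 (fitted −0.53, SE 0.25). Both were below 0 on all 3 arrays, as were 4 members and 13.3% of all features, but only replicate 3 was far from 0. Psmb5 measured 0.10, −0.08 and −0.71, and Psmb7 measured 0.41, 0.06 and 0.42, so that the catalytic subunits of the core did not move as 1 block. Psma8 was the lowest member and measured −0.79, −0.85 and −0.21 (fitted −0.70, SE 0.29, unadjusted p = 0.0248, and 0.00 as deposited), from the probe with shared values on every array.

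The highest members at 30 min were again of the lid. Psmd14 measured 0.95, 0.12 and 1.64, above 0 on all 3 arrays and 0.88 in the fit (SE 0.27, unadjusted p = 0.00418, limma adjusted p = 1.00; 0.77 as deposited), the largest ratio of any member in any of the 6 comparisons. Psmd13 measured 0.57, 0.15 and 0.59 (fitted 0.41, SE 0.20), and Psmd7 measured 0.32, 0.31 and 0.45 (fitted 0.35, SE 0.17, and 0.09 as deposited). The 3 probes averaged for Psmd7 had fitted values from 0.05 to 0.72. All 8 lid subunits had a fitted ratio above 0, with a median of 0.22 (6 of 8 and 0.11 as deposited), and all 4 structural beta subunits had one below 0, with a median of −0.31 (0 of 4 above 0 and −0.33 as deposited). In all, 10 members stood above 0 on every array (12.5% of all features).

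The immunoproteasome subunits lay low on the same array. At 30 min Psmb8 measured 0.55, −0.36 and −0.36, Psmb9 measured −0.01, 0.46 and −0.55, and Psmb10 measured 0.08, 0.24 and −0.72. On replicate 3 all 3 were below 0, and on replicates 1 and 2 they lay on both sides. Their mean minus the median of the constitutive subunits was −0.20 in the fit, and 0.08 without replicate 3, so that the sign rested on that array. Psme1 and Psme2 measured 0.18, −0.02 and 0.21, and −0.19, 0.16 and −0.72.

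An array of young against young arteries at 30 min, also numbered 3, carried nearly the mirror image. On it Psmb8 stood at 1.5, Psmb3l2 at 1.36, Psmb5 at 1.08, Psmb6 at 1.07 and Psmb3 at 0.85, while Psma4, an alpha subunit, stood at −1.35, Psmd6, a lid subunit, at −1.24 and Psmd14 at −0.77. Across the 50 members the ratios on these 2 arrays correlated at r = −0.72, and across all features at −0.39. Both arrays have channel 1 in Cy5. Psmd14 was thus the highest member on the first and among the lower ones on the second, and Psmb3 and Psmb6 changed places with it. Why the 2 arrays mirror each other was not tested.

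**Figure D2:**
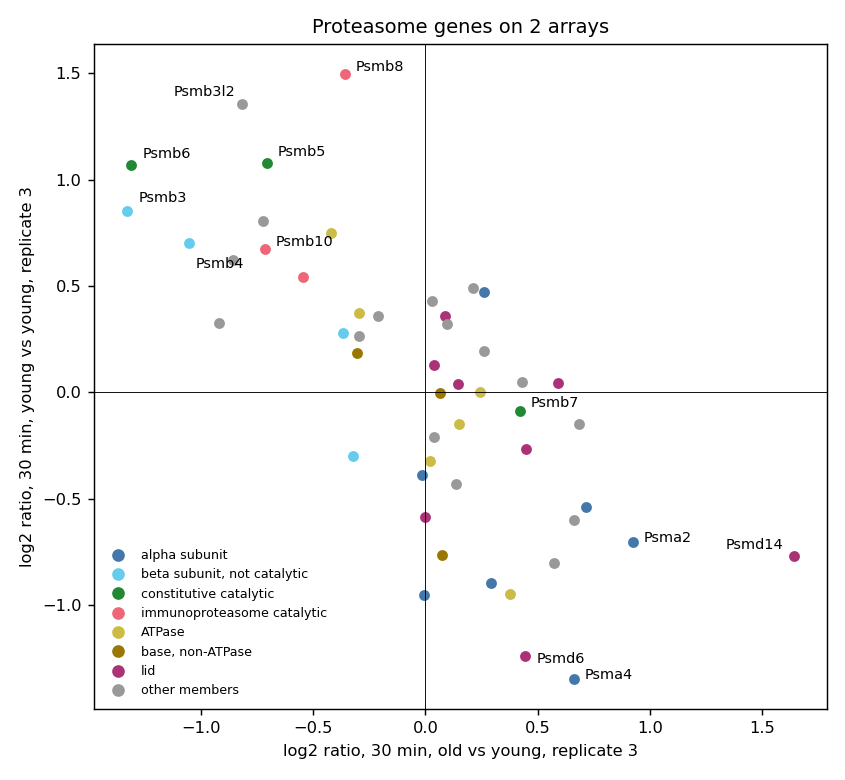
Log2 ratio of each of the 50 proteasome genes on replicate 3 of 30 min, old versus young (horizontal axis) and on replicate 3 of 30 min, young versus young (vertical axis), coloured by role. Most genes of the beta ring lie at the upper left and Psmd14 and most alpha genes at the right or below (r = −0.72).

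A second pair of arrays resembled each other in the members. Replicate 3 of healthy arteries and replicate 1 of 30 min correlated at r = 0.80 across the 50 members and at 0.43 across all features. These 2 arrays have opposite dye orientation. On both, Psmd14 was the highest member (1.04 and 0.95) and Psmb8 was well above the median (0.84 and 0.55). Whether such arrays share an artery is not given in the labels. Neither this pair nor the mirrored one was named in advance. Pairs of arrays within the 6 groups correlated across the members at −0.68 to 0.66.

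At 3 days after injury the members centred on 0. The median of the constitutive subunits was −0.01, and 0.04 as deposited, and 24 of 50 members were above 0, against 52% of all features. The highest were Psmd6 (0.94, 0.09, 0.35 and 0.18 on replicates 1 to 4), Psmb4, a structural beta subunit (−0.11, 0.33, 0.80 and 0.23), and Psma2, an alpha subunit (0.34, 0.33, 0.02 and 0.43). Psmd6 and Psma2 were above 0 on all 4 arrays, as was the inhibitor Psmf1, and 3.56% of all features were. Psmd6 had a fitted value of 0.39 (SE 0.25, unadjusted p = 0.141) and Psma2 one of 0.28 (SE 0.18, unadjusted p = 0.147, limma). As deposited Psmd6 had −0.25, Psmb4 −0.03 and Psma2 0.10, so that Psmd6 and Psmb4 changed sign with the reading.

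The lowest members at 3 days were Psmb11, the catalytic subunit of the thymus (−1.08, −0.17, −0.64 and −0.16), Psma8 (−1.21, −0.27, −0.26 and 0.49) and Psmd11 (−0.26, −0.64, 0.12 and −0.33). As deposited Psmb11 had 0.35 and Psma8 0.42, the highest of all members, and Psmd11 −0.21. In the turned reading Psmb11 was below 0 on all 4 arrays, as was Psmd3 (−0.15, −0.49, −0.27 and −0.03) and 3.6% of all features, but its probe shared its value with other probes on 14 of 20 arrays. Psmd11 was the only member under an unadjusted p of 0.05, with −0.27 (SE 0.13, unadjusted p = 0.0449, limma adjusted p = 1.00), and crossed 0 on replicate 3.

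The catalytic subunits at 3 days differed between arrays of opposite dye. Psmb5 measured −0.39, 0.02, −0.03 and 0.13, Psmb6 measured −0.50, 0.09, −0.27 and 0.30, and Psmb7 measured −0.17, 0.15, −0.17 and 0.31. Each of these was lower on replicates 1 and 3, with the old artery in Cy3, than on replicates 2 and 4. Psmb8 measured −0.94, −0.03, −0.26 and 0.50, Psmb9 measured −0.43, −0.55, 0.16 and 0.08, and Psmb10 measured 0.03, 0.14, −0.17 and 0.46. Psmb8 and Psmb10 had the same order by dye, Psmb9 did not, and all 6 crossed 0. The mean of the immunoproteasome subunits minus the median of the constitutive subunits was −0.08 on the log2 scale and 0.14 as deposited, so its sign depended on the reading. Of the activator pair, Psme1 measured −0.40, 0.27, −0.24 and 0.17, with the same order by dye, and Psme2 measured 0.10, −0.04, 0.01 and 0.23, near 0 throughout.

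At 7 days after injury, when limma called 84 features higher and 197 lower, no proteasome gene was among them in the turned reading. The median of the constitutive subunits was 0.08, and 0.05 as deposited, and 40 of 50 members were above 0 (28 as deposited), against 51.1% of all features. By role, 4 of 4 structural beta subunits, 3 of 3 constitutive catalytic subunits, 6 of 6 ATPases and 7 of 8 lid subunits were above 0 (4, 2, 2 and 5 as deposited), but 3 of 7 alpha subunits (2 as deposited). Psmb5, a catalytic subunit, measured 0.08, 0.05, 0.17 and 0.09, and Psmb6 measured 0.05, 0.07, 0.12 and 0.16, both above 0 on all 4 arrays within a narrow range (mean 0.10, SD 0.05, and mean 0.10, SD 0.05). Their fitted fold was 1.07. As deposited Psmb5 had 0.03 and Psmb6 −0.01, each with 2 of 4 arrays below 0. Psmb7 measured −0.13, 0.24, 0.47 and −0.28 and was on both sides of 0.

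Psmd7 was the highest of the members at 7 days and measured 0.19, 0.41, 0.30 and 0.11, above 0 on every array, with a fitted value of 0.25 (SE 0.15, limma adjusted p = 0.56). As deposited it had −0.01 and its arrays lay on both sides of 0. In the turned reading it had the same sign on every array in healthy arteries and at 30 min too, and at 3 days it measured 0.14, −0.11, 0.04 and 0.16. These values are means of 3 probes, which had fitted values from 0.10 to 0.41 at 7 days. Single probes measured as low as −0.25 at 7 days, −0.04 in healthy arteries and −0.17 at 30 min. The same sign on every array thus holds for the mean and not for each probe. A probe among them shared its value with at least 2 other probes on 3 arrays. Psmd14 measured 0.17, 0.61, 0.44 and −0.25 and Psmc3ip, a factor of meiotic recombination, 0.02, 0.50, 0.47 and −0.04. In all, 5 members were above 0 on all 4 arrays (Psmb5, Psmb6, Psmc5, Psmd7 and Psmd12; 4.32% of all features) and 0 were below (5.38%). The lowest were Psma8 (−0.23, −0.71, 0.60 and −1.28), the inhibitor Psmf1 (−0.22, −0.01, −0.37 and 0.03) and the assembly chaperone Psmg4 (−0.54, 0.13, −0.45 and 0.43), which all crossed 0. As deposited Psma8 was the highest member with 0.59, while Psmf1 had −0.15 and Psmg4 −0.39.

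The immunoproteasome subunits had fitted ratios near 0 at 7 days in the turned reading. Psmb8 measured 0.40, −0.54, 0.11 and −0.16 (fitted −0.05, 95% interval −0.58 to 0.48). Psmb9 measured 0.00, −0.23, −0.05 and 0.03 (fitted −0.06, 95% interval −0.46 to 0.33). Psmb10 measured 0.14, −0.05, −0.04 and −0.04 (fitted 0.00, 95% interval −0.38 to 0.38). Psmb9 and Psmb10 were narrow around 0, and Psmb8 was on both sides of it with the dye of the array. As deposited Psmb8 was above 0 on all 4 arrays (0.40, 0.54, 0.11 and 0.16; fitted 0.31), and Psmb9 and Psmb10 had 0.04 and 0.05. Psme1 measured 0.21, −0.13, 0.07 and −0.09, and Psme2 measured −0.18, 0.27, −0.13 and 0.51, with opposite order by dye. Replicate by replicate, Psmb9 lay below Psmb6 on all 4 arrays (mean difference −0.16, SD 0.11), and the mean difference was 0.05 as deposited.

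**Figure D3:**
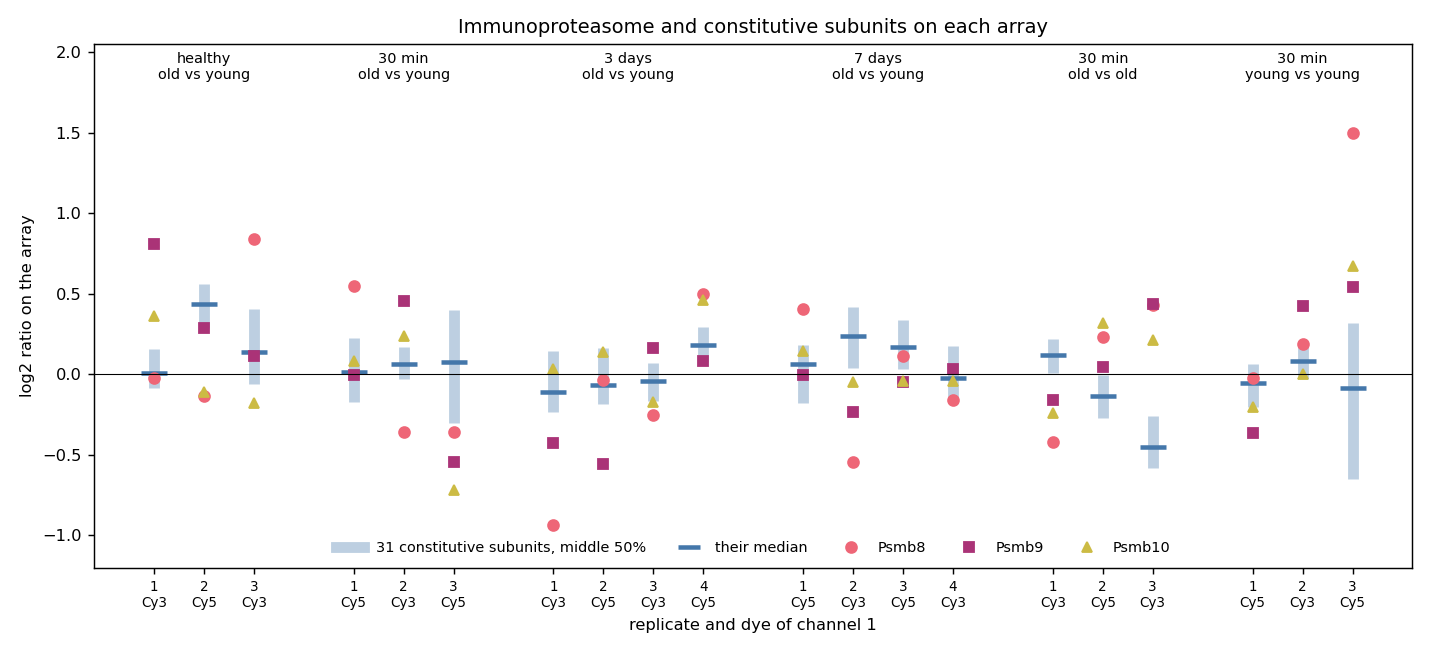
Log2 ratio of Psmb8, Psmb9 and Psmb10 (symbols) on each of the 20 arrays beside the 31 constitutive subunits (bar, middle 50%; dash, median), by group, replicate and dye of channel 1. The immunoproteasome subunits lie on both sides of the constitutive median in every group of old versus young arrays.

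The interferon response genes and the MHC class I genes, with which the immunoproteasome shares inducers, were read beside it. At 7 days 33 of 34 measured interferon response genes had a ratio below 0, with a median of −0.44. By limma 13 of them were under an unadjusted p of 0.05 (6.25% of all features were below 0 by it) and 0 were called. As deposited 25 of 34 lay above 0, with a median of 0.16, so that the direction of the list depended on the reading. In that reading 1 was called, against 10% of all features called above 0 and 11.8% below. In the turned reading Usp18, an ISG15 protease, had −0.98 (SE 0.30, adjusted p = 0.163 by limma) and Oasl, an antiviral protein, −1.05 (SE 0.33, adjusted p = 0.177). The list's mean, also turned, was 0.14, −1.09, −0.92 and −0.21 on the 4 arrays. Replicates 2 and 3 thus lay far below 0 and replicates 1 and 4 near it. At the same time Psmb8, Psmb9 and Psmb10 stood at −0.05, −0.06 and 0.00, and at 0.31, 0.04 and 0.05 as deposited. The difference between the lists was not tested.

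Of 16 MHC class I antigen processing genes, 13 were above 0 in healthy arteries (median 0.22), 14 at 30 min (0.26), 3 at 3 days (−0.13) and 11 at 7 days (0.03), which became 9, 13, 14 and 12 as deposited. In the turned reading 0 were called by limma, and 0, 0, 3 and 2 as deposited. In the latter reading 7.08% of all features were called above 0 and 7.33% below at 3 days, and 10% and 11.8% at 7 days. At an unadjusted limma p under 0.05, 4, 5, 0 and 1 were above 0 once turned (1.57%, 2.45%, 2.15% and 5.28% of all features). The class I heavy chain gene RT1-CE16 had a log2 ratio of 1.04 in healthy arteries (SE 0.19, adjusted p = 0.146) and RT1-A2 one of 0.87 (SE 0.20, adjusted p = 0.656), where Psmb8, Psmb9 and Psmb10 stood at 0.29, 0.37 and 0.04. Tap1 and Tap2, the neighbours of Psmb8 and Psmb9, stood at 0.20 (SE 0.24) and 0.26 (SE 0.24) there and at 0.14 and 0.00 at 7 days.

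**Figure D4:**
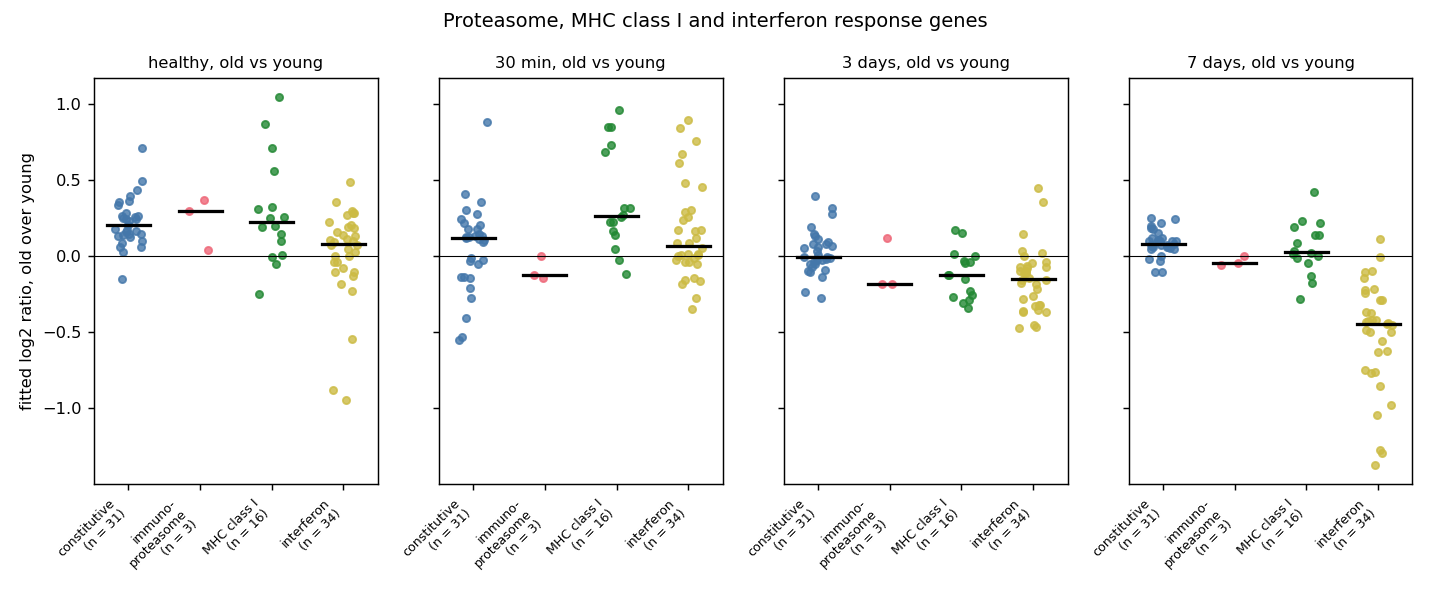
Fitted log2 ratios of old over young (points, 1 per gene) with the median (line) for the constitutive subunits, the immunoproteasome subunits, the MHC class I genes and the interferon response genes in 4 comparisons. At 7 days the interferon genes have a median of −0.44 and the constitutive subunits one of 0.08.

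The ATPase Psmc6 stood apart from the other subunits at 3 and 7 days. At 3 days it measured 1.29, −0.87, 1.08 and −0.74 on replicates 1 to 4, and at 7 days −1.03, 1.13, −0.57 and 0.85, positive on each array with the old artery in Cy3 and negative on each with it in Cy5. As deposited it was below 0 on all 8 arrays, between −1.29 and −0.57, with a mean of −0.95 (SD 0.23). On each of these 8 arrays it lay outside the range of the other 30 constitutive subunits. Its probes, 2 in number, measured 1.47, −0.94, 1.21 and −0.75, and 1.11, −0.81, 0.95 and −0.73 at 3 days once turned. At 7 days they measured −1.02, 1.07, −0.58 and 0.93, and −1.03, 1.18, −0.57 and 0.78. Their turned fitted values lay within 0.12 of each other at 3 days and 0.01 at 7 days. Arrays of opposite sign largely cancel in those fits, so this closeness does not show how well the probes match on single arrays.

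When all arrays were left as deposited, Psmc6 was the only member called by limma, at −1.0 at 3 days (SE 0.19, adjusted p = 0.0022) and −0.89 at 7 days (SE 0.19, adjusted p = 0.0026). In that reading 1 of 50 members was a smaller share than the shares of all features given above. In the turned reading its ratio was 0.19 at 3 days (SE 0.29) and 0.10 at 7 days (SE 0.29). In healthy arteries it measured 0.29, 0.44 and −0.04, and at 30 min −0.45, 0.17 and 0.38. Whether the 3 and 7 day signal follows the age of the artery or the dye cannot be told apart from these ratios while their direction is not settled.

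Keeping 1 sign on the arrays of 3 and 7 days, as deposited, was no more common among members than among all features. As deposited, 4 members were below 0 on all 8 arrays of 3 and 7 days (Psma1, Psma3, Psmc6 and Psmg4; 10.8% of all features) and 3 were above (Psmb3, Psmd4 and Psme1; 8.85%), while in the turned reading 0 members had 1 sign on all 8 arrays (0.0971% of all features were above and 0.239% below). Psma3, an alpha subunit, had a mean of −0.23 (SD 0.10) as deposited and Psmd4, a ubiquitin receptor of the base, one of 0.26 (SD 0.10). Across the 50 members, arrays of the same dye correlated at 0.63 and 0.66 at 3 days and at 0.31 and 0.52 at 7 days, and arrays of opposite dye, once turned, at −0.47 to −0.15 and −0.68 to −0.23.

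**Figure D5:**
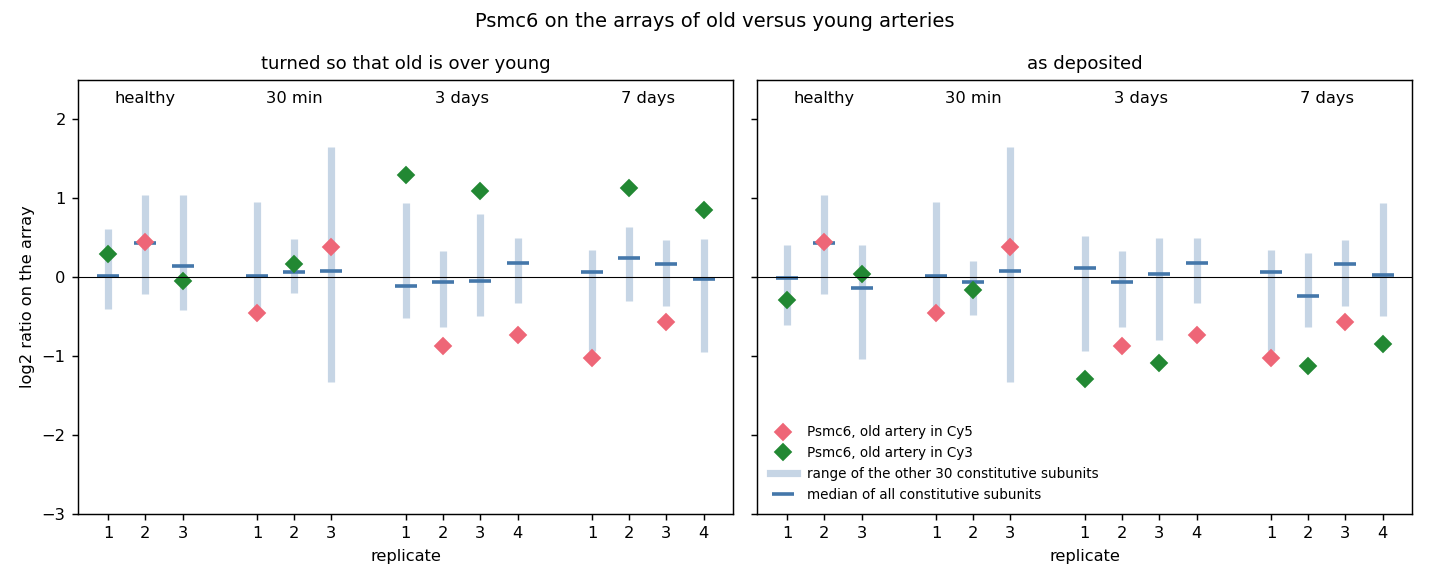
Log2 ratio of Psmc6 (diamonds, coloured by the dye of the old artery) on the 14 arrays of old versus young arteries, with the range and median of the constitutive subunits, turned to old over young (left) and as deposited (right). At 3 and 7 days Psmc6 changes sign with the dye on the left and lies between −1.29 and −0.57 on the right.

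Within an age, at 30 min, no member was called by limma either (0 of 50 in both comparisons, against 0% and 0.00832% of all features above and below 0 in old versus old and 0% and 0.00277% in young versus young arteries). In old versus old arteries 1 member was under an unadjusted p of 0.05 (2.28% of all features were below 0 by it) and 0 by the one-sample t-test (3.42%). This was Psmc1, an ATPase, with −0.63, −0.01 and −1.13 (fitted −0.57, SE 0.22, unadjusted p = 0.0177, limma adjusted p = 1.00). Replicate 3 was low as a whole there. Its median over the constitutive subunits was −0.45, and 8 of 50 members were above 0, while Psmb8 and Psmb9 measured 0.43 and 0.44. Psmc6 (0.09, −0.27 and −0.49) and the chaperone Psmg1 (0.01, −0.21 and −0.82) followed as the lowest members. The highest were Psmb11 (0.27, 0.09 and 0.41), Psme2 (0.19, 0.35 and 0.18) and Psmd11 (0.15, 0.13 and 0.32), each above 0 on all 3 arrays.

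In young versus young arteries 1 member was above 0 under an unadjusted p of 0.05 by limma (1.98% of all features above and 3.4% below) and 3 by the one-sample t-test (4.4%). Psmb3l2 measured 0.22, 0.17 and 1.36 (fitted 0.56, SE 0.24, unadjusted p = 0.0318, limma adjusted p = 0.841), high on replicate 3 as described. Psmb8 (−0.02, 0.19 and 1.5) and Psme2 (−0.14, 0.51 and 0.80) were next, and Psmd14 (−0.42, −0.12 and −0.77), Psma4 (−0.06, 0.09 and −1.35) and Psmd6 (−0.65, 0.41 and −1.24) were lowest. Of these only Psmd14 and Psmb3l2 had 1 sign on all 3 arrays. The catalytic subunits parted on replicate 3 of old versus old arteries. There Psmb5, Psmb6 and Psmb7 measured −0.67, −0.71 and −0.26, and Psmb8, Psmb9 and Psmb10 measured 0.43, 0.44 and 0.22. On replicate 1 the values were −0.17, 0.11 and 0.19 for the constitutive and −0.42, −0.16 and −0.24 for the immune subunits, and on replicate 2 they were 0.01, −0.25 and −0.53 and 0.23, 0.05 and 0.32, so that the immune subunits were the lower on replicate 1 and the higher on the other arrays. The mean of the immunoproteasome subunits minus the median of the constitutive ones was −0.39, 0.33 and 0.81 over the arrays of old versus old and −0.14, 0.12 and 0.99 over those of young versus young arteries, largest on replicate 3 of each.

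Between times, no member's old over young ratio passed the adjusted test in the turned reading in the contrasts of 30 min, 3 days and 7 days with healthy arteries or of 7 with 3 days (0 of 50 in each, against at most 0.0388% of all features higher and 0.0444% lower). Under an unadjusted p of 0.05 limma had 2, 2, 1 and 1 members below 0 and none above, where 0.721%, 1.66%, 2.52% and 4.49% of all features were below. These contrasts share the healthy or the 3 day arrays. The largest difference was that of Psma8 between 30 min and healthy arteries, −1.15 (SE 0.41, unadjusted p = 0.0116, limma adjusted p = 1.00). For Psmd14 the ratio at 3 days minus that in healthy arteries was −0.75 on the log2 scale (SE 0.35, unadjusted p = 0.0473, adjusted p = 1.00 by limma), for Psmd3 it was −0.63 (SE 0.22, unadjusted p = 0.0117, adjusted p = 1.00), and for Psmb6 at 30 min it was −0.78 (SE 0.35, unadjusted p = 0.0404, adjusted p = 1.00). As deposited these differences were 0.30 for Psma8, 0.06 for Psmd14, −0.03 for Psmd3 and −0.48 for Psmb6, so that those of Psma8 and Psmd14 changed sign.

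Genes around the proteasome were not called in the turned reading, and some were at 3 and 7 days as deposited. In that reading limma called 7.08% of all features above 0 and 7.33% below at 3 days, and 10% and 11.8% at 7 days. Under an unadjusted limma p of 0.05 in the turned reading, 1.57% of all features were above 0 and 1.33% below in healthy arteries. These shares were 2.45% and 1.48% at 30 min, 2.15% and 2.19% at 3 days, and 5.28% and 6.25% at 7 days. Of 19 measured chaperones, receptors and regulators outside the symbol rule, 13, 11, 9 and 15 were above 0 in healthy arteries and at 30 min, 3 days and 7 days, and 0 were called (11, 10, 8 and 9 above 0 as deposited, with 4 called at 3 days and 2 at 7 days). Of 18 genes of ubiquitin and its conjugation 11, 10, 8 and 11 were above 0, and of 15 genes of p97 and degradation from the endoplasmic reticulum 8, 9, 6 and 13, again with 0 called in each by limma (at an unadjusted p under 0.05, 0, 2, 1 and 0 and 1, 1, 0 and 1). As deposited these became 9, 12, 8 and 9, and 10, 6, 9 and 10, with 4 and 4 called at 3 and 7 days for ubiquitin conjugation and 1 and 2 for p97. The values of single genes that follow are of the turned reading. Of these genes, Nploc4, a cofactor of p97, had 0.58 at 7 days (SE 0.19, adjusted p = 0.199 by limma), and Ube2c, a ubiquitin-conjugating enzyme of mitosis, had 0.44 (SE 0.21, adjusted p = 0.447). In healthy arteries Zfand5, which stimulates the proteasome, had −0.55 (SE 0.27) and the ubiquitin receptor Adrm1 −0.70 (SE 0.38), both with an adjusted p of 1.00 by limma.

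Markers of cell types moved beside the members and their part in the members' ratios was not tested. In healthy arteries all 7 measured smooth muscle markers were above 0 (array means from −0.12 to 0.90; Cnn1 1.29), and 4 of 7 as deposited. Of 6 fibroblast markers 5 were below 0 (array means −0.83 to −0.29; Col1a1 −1.39), while all 6 were above 0 as deposited, and all 7 skeletal muscle markers had a fitted ratio below 0 (array means −1.66 to 0.88), against 6 as deposited. At 7 days 4 of 6 neutrophil markers were above 0 (6 as deposited; array means −0.35 to 1.19), among them S100a8 with 1.03 (SE 0.25, adjusted p = 0.063 by limma). No gene of these lists was called in any of the 6 comparisons in the turned reading. As deposited at 7 days 12 of 13 lymphocyte, 5 of 6 general leukocyte and 8 of 9 macrophage markers were above 0. In them 4, 3 and 2 were called, and 8, 4 and 2 were above 0 once turned. For endothelium, neutrophils, adipocytes, skeletal muscle, fibroblasts and smooth muscle 2, 1, 1, 1, 0 and 0 were called. Of all features 10% were called above 0 and 11.8% below. At 3 days endothelium, lymphocytes, adipocytes and skeletal muscle had 1 called each (7.08% and 7.33% of all features). The smooth muscle marker Acta2 has no probe with that symbol and was not analysed here.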

How the data were processed

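Iliac artery RNA was hybridised in pairs to 20 two-colour arrays. The authors scanned them on a GenePix scanner, normalised spots by Lowess with spot quality criteria in Acuity and named GeneSpring for the group comparison. The deposited values are log2 ratios per probe, and the step that made this column is not stated. Probes were named through the platform annotation, and probes of 1 gene were averaged. Old versus young ratios were multiplied by −1 where Cy3 marked the old artery. The main test was limma (version 3.58.1, R 4.3.3) with a coefficient for each of the 6 groups and one for the dye (13 residual degrees of freedom), tested against 0 over 36037 features with Benjamini-Hochberg adjustment, at a threshold of 0.05. A one-sample t-test of each comparison's arrays, without correction, was run as an alternative, since the methods name an uncorrected one-way analysis of variance. No source pairs the arrays by replicate number. Of 46 pairs of arrays with the same number in different groups, deviations from the group means correlated at −0.45 to 0.28.

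The named genes were Psmb5 to Psmb10, Psme1 and Psme2, the 3 highest and 3 lowest members of each comparison by fitted ratio, members called in any comparison, and the genes of smallest p of the other lists. Psmc6, Psmd4, Psma3, Tap1, Tap2 and the genes on single arrays were named after their values were seen. The members, gene lists and tests were chosen with earlier results of these data known. Of the 59 member probes, 43 (72.9%) shared a value with at least 2 other probes on no array, as did 19.5% of all probes. Spot intensities were not used here, so the ratios carry no measure of signal over background. The fits were tested on simulated data. Alternatives were other readings of the sign, normalisations, filters, array weights, leaving out each array, and a replicate block, and the removal of 2 arrays and a filter on repeated values were added after seeing the data. Promoters came from RefSeq (GRCr8), and 44 of 50 members matched.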

Additional observations from a re-analysis of the deposited data

Results flagged for a closer look

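Once turned, 4 of 100 groups of 4 values (50 members at 3 and at 7 days) had 1 array far from the others. Chance alone puts about 1 in 20 groups there. All 4 were at 7 days. Psma7, an alpha subunit, measured −0.94 on replicate 4, where the other arrays ran from 0.09 to 0.22. Psmd13, a lid subunit, measured −0.46 on the same array against 0.35 to 0.49. Psme3, a nuclear activator of the core, measured −0.33 on it against 0.35 to 0.46. Psmb10 measured 0.14 on replicate 1 and −0.05 to −0.04 on the others. As deposited, in order of replicate, Psma7 measured 0.22, −0.20, 0.09 and 0.94, and Psmb10 0.14, 0.05, −0.04 and 0.04. Psmd13 measured 0.35, −0.49, 0.35 and 0.46, and Psme3 0.43, −0.35, 0.46 and 0.33, both lowest on replicate 2. Which array stood apart thus depended on the reading, and the search was run on the turned reading alone.

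Once turned, 2 members had every array of 30 min on one side of 0 and every array of a later time on the other. Only 30 min against 3 days and 30 min against 7 days were looked at. The share of all features with this property was not counted, so the number is not a result about the members. Psmd3 had a fitted log2 ratio of 0.11 at 30 min and −0.23 at 3 days. Psmb6 had −0.53 at 30 min, where replicate 3 stood far below the others, and 0.10 at 7 days. As deposited Psmd3 had 0.02 and −0.03, and Psmb6 had −0.43 and −0.01, so that the opposite signs of Psmb6 are found in the turned reading alone and Psmd3 stayed within 0.03 of 0. The differences between these times were not tested.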

How the results depend on the processing

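In the turned reading the count of proteasome genes called was 0 in the 6 comparisons and 4 contrasts, and it stayed 0 when each array was left out. It became 1 at 3 days and 1 at 7 days under the 3 readings that left the late arrays as deposited (all arrays; old versus young as deposited with the within-age arrays turned; 3 and 7 days only), which was Psmc6. It became 1 for 7 days minus healthy arteries with all arrays, or those of 3 and 7 days, as deposited, 1 for 3 days minus healthy arteries with 3 and 7 days as deposited, and 1 for 30 min minus healthy arteries at the study's thresholds in limma (Psma8). The median log2 ratio of the constitutive subunits at 30 min was 0.11, and −0.028 with all arrays as deposited, −0.0074 with the within-age arrays turned instead, 0.082 with 3 and 7 days as deposited, 0.034 with array weights, 0.081 without replicate 3 of both old versus young and young versus young, and 0.081 to 0.12 when each array was left out. The immunoproteasome mean minus the constitutive median at 3 days was −0.08, 0.14 under the 3 readings as deposited, and −0.17 to −0.02 when each array was left out. At 30 min it ran from −0.33 to 0.08 when each array was left out and was above 0 without replicate 3. In healthy arteries it was 0.03, −0.28 with all arrays as deposited, −0.27 with the within-age arrays turned instead, −0.013 with 3 and 7 days as deposited, and −0.14 to 0.29 when each array was left out, and at 7 days it was −0.11 and 0.082 as deposited. With a replicate block the counts remained 0, and the difference was 0.09 in healthy arteries and −0.13 at 30 min. The numbers only name the samples. The cause of these shifts was not tested. Of 3848 values of single members under the alternatives, 92 moved by at least 1 SD between arrays or were called in the other direction. Among the alternatives, 20 left out 1 array each. Most of their values belong to comparisons that kept all their arrays and could change only through the shared dye term and spread. The count is therefore no measure of how stable the values are. Limits are the unsettled direction of the ratios, 3 or 4 arrays a group and the lack of spot signal.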

Other observations

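Within an age, at 30 min, 28 of 34 interferon response genes were above 0 in old versus old arteries (median 0.19) and 24 of 34 in young versus young (0.06). By limma 0 were called, with 4 and 3 above 0 under an unadjusted p of 0.05 (1.12% and 1.98% of all features). All 6 neutrophil markers were above 0 in both (medians 0.46 and 0.35), and 6 of 7 smooth muscle markers were below 0 in both (−0.59 and −0.18). The labels do not say which artery of these pairs was injured.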
